A study of Mus musculus with 6 samples.

Results

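The genes described here carry out or restrain 4 forms of regulated cell death: apoptosis, necroptosis, pyroptosis and ferroptosis. They were measured in tubular epithelial cells from injured mouse kidneys. The list of 35 genes was taken by symbol, with earlier results of these data known. The annotation used gave a transcript cluster (the array feature that stands roughly for a gene) to 33 of them, among 19505 named genes in all. Ripk1 and Parp1 are not analysed here. Each of the 33 genes had a single cluster, so no choice between clusters was needed.

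Kidneys of all mice had 30 min of ischemia followed by 24 h of reperfusion, which injures the tubules acutely. Tubular cells were then released with collagenase. The vehicle arm (arrays named IR) and the PT2385 arm (arrays named IRPT) had 3 arrays each. PT2385 blocks the hypoxia-inducible factor HIF-2α. Doses of 10 mg/kg preceded surgery by 16 h and followed it by 1 h, 8 h and 20 h, although the injection is once spelled PT2384 in the protocol. The labels give neither strain, age nor sex of the mice, nor whether arrays came from separate animals, so p-values here measure only the spread between these arrays, which may be technical. Uninjured kidneys were not analysed here, so no value tells how injury itself moved a gene.

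Apoptosis runs through death receptors that activate caspase-8, or through mitochondria, where members of the BCL-2 family decide whether the outer membrane opens and caspase-9 is activated. When caspase-8 is held back, the kinases RIPK1 and RIPK3 can engage the pore-forming protein MLKL, which is necroptosis. In pyroptosis an inflammatory caspase cuts gasdermin D, whose fragments perforate the plasma membrane. Ferroptosis is iron-dependent peroxidation of membrane lipids, held in check by the enzyme GPX4, and it is a well-known form of tubular cell death after ischemia.

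The arms also differed in transcripts of the Y chromosome. Uty, a gene of that chromosome, had 8.76, 8.63 and 8.58 under vehicle and 3.25, 2.85 and 2.86 under PT2385 on the log2 scale. Every difference below was measured between arms that differ in this way in all 6 arrays, so an effect of PT2385 and one of sex cannot be told apart. Array medians were 6.20 in each vehicle array and 6.24 to 6.25 in the PT2385 arrays, near a common scale but with a small offset between the arms. Medians of the negative control rows were 4.37 to 4.47 under vehicle and 4.28 to 4.38 under PT2385. Of 22206 clusters tested, 0.829% passed an adjusted p of 0.05 in limma (Benjamini-Hochberg over all clusters), made up of 0.495% with lower and 0.333% with higher values in the PT2385 arm. With each array centred on its median, 135 clusters were lower and 57 higher, against 110 and 74 as deposited.

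None of the 33 cell death genes passed the adjusted threshold in limma, where the lowest adjusted p was 0.11; with array weights, or without PT2385 replicate 1, 1 gene (Bid) passed. Most of them nevertheless had slightly lower values in the PT2385 arm: 25 were lower and 8 higher, with a median difference of -0.14 on the log2 scale (PT2385 minus vehicle). Over all clusters 46.5% were lower and the median difference was 0.02. At an unadjusted p under 0.05, 1 gene was lower (Bid) and 2 were higher (Bcl2 and Alox15). The same threshold took 6.54% of all clusters as lower and 7.94% as higher, so the count of 3 in 33 does not exceed those shares. The groups did not overlap for 5 genes that were lower (Bid, Mcl1, Lpcat3, Gpx4 and Aifm2) and for 2 that were higher. Among all clusters the shares were 9.13% and 11.6%. In a bulk sample fewer cells of a type and less RNA per cell cannot be told apart.

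**Figure D1:**
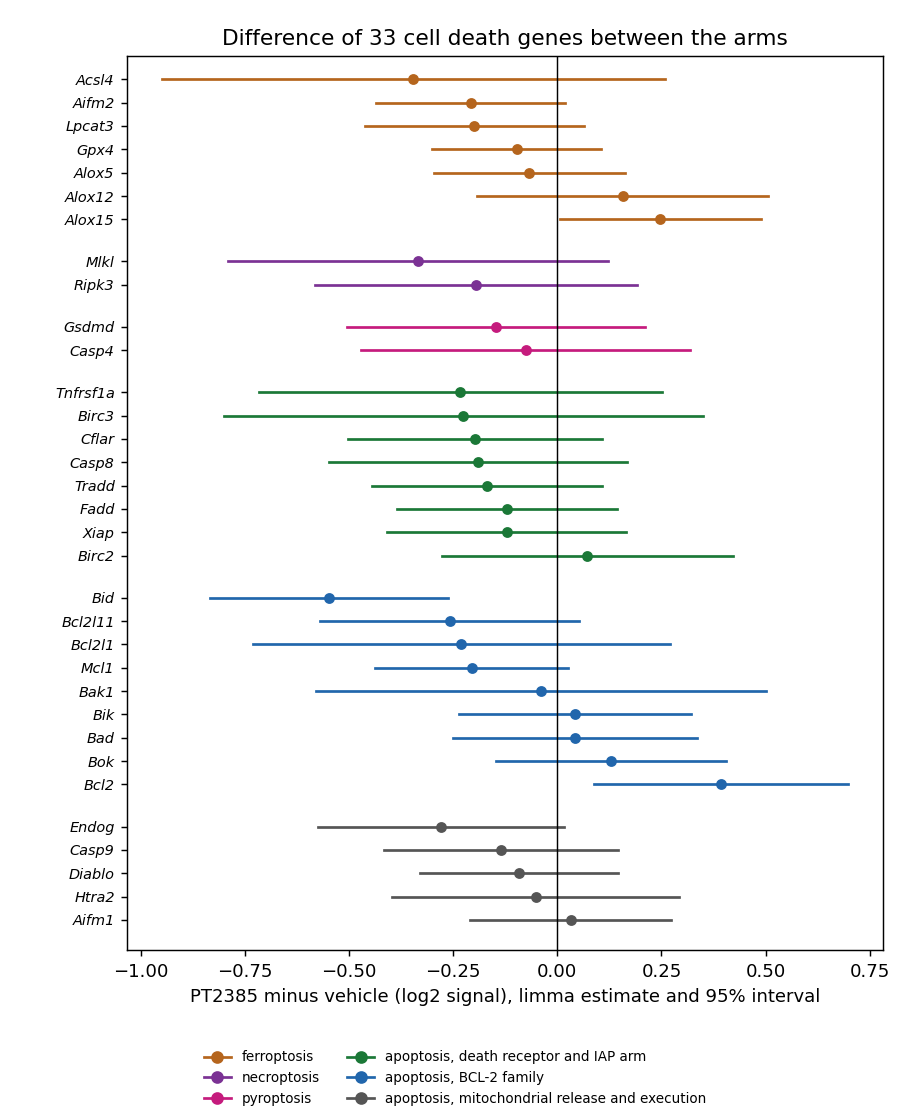
Difference between the arms (PT2385 minus vehicle, log2 signal) for each of the 33 genes, grouped by death pathway; points are limma estimates and lines are 95% intervals, from 3 arrays per arm. Only the intervals of Bid (below 0) and of Bcl2 and Alox15 (above 0) leave out 0, before any adjustment for the number of clusters tested.

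The lower direction leaned most on PT2385 replicate 1, though replicate 2 was low as well. The median deviation of the 33 genes from their means over 6 arrays was -0.145, -0.089 and 0.087 in PT2385 replicates 1 to 3. In the vehicle arrays it was 0.028 to 0.087. PT2385 replicate 1 held the lowest of the 6 values for 18 of the 33 genes (54.5%), while it was lowest for 19.9% of all clusters. Without that array the median difference was -0.05 (0.02 over all clusters), with 21 genes lower and 12 higher. The sign turned for Casp4, Tnfrsf1a, Birc3, Bik, Bak1, Bcl2l1, Htra2 and Aifm1. Over the omission of each of the 6 arrays in turn, the difference of 28 genes moved by over 1.5 times or changed sign at least once. Those of Gpx4, Aifm2, Bid, Bcl2 and Mcl1 did not. The PT2385 arrays also scattered more: the range over 3 arrays was wider in the PT2385 arm than in the vehicle arm for 26 of 33 genes, against 50.96% of all clusters. The widest ranges were those of Acsl4 (1.10), Birc3 (1.08), Bak1 (0.99), Tnfrsf1a (0.94) and Bcl2l1 (0.94). In each of these 5 genes PT2385 replicate 1 was the lowest array and replicate 3 the highest of its arm.

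**Figure D2:**
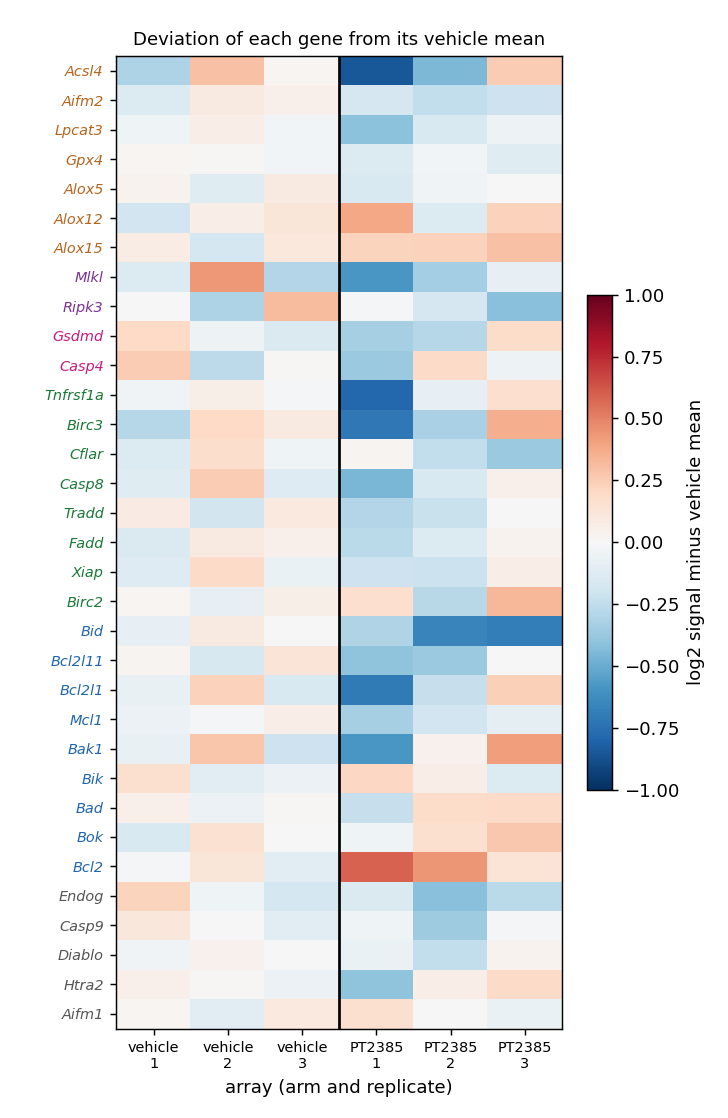
Log2 signal of each gene in each of the 6 arrays minus that gene's mean over the vehicle arrays (blue, lower; red, higher), with gene names coloured by pathway as in the plot of differences. The column of PT2385 replicate 1 is the bluest, holding the lowest value of 18 of 33 genes, while Bcl2 is at its highest there.

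Markers of other cells differed between the same arrays. The mean log2 level of 9 neutrophil markers was 5.27 to 5.47 under vehicle and 4.55 to 5.10 under PT2385, lowest in PT2385 replicate 1. Of these 9 markers, 7 had lower values, 1 of them (Csf3r, the G-CSF receptor gene) past the threshold, and Ngp and Ltf lay below the median of the negative control rows. For 14 macrophage and monocyte markers the mean level was 6.56 to 6.95 and 6.35 to 6.52, with 9 of 14 lower and 1, the lysozyme gene Lyz2 (-1.19), past the threshold. The median difference of this list was only -0.035. Beside Lyz2, the differences of at least 0.5 in size were those of Ccr2 (-1.15), Itgam (-0.95) and Mrc1 (-0.57). Adgre1, Csf1r, Cx3cr1 and Fcgr1 lay within 0.1 of 0, and 5 genes were higher.

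Mean marker levels of nephron segments differed as well. The mean of 9 thick ascending limb and distal tubule markers was 9.27 to 9.54 under vehicle and 9.83 to 10.61 under PT2385, highest in PT2385 replicate 1. The mean of 8 collecting duct markers was 8.37 to 8.56 and 8.85 to 9.05, also highest in PT2385 replicate 1. In these lists 0 markers passed the adjusted threshold in limma, with lowest adjusted p of 0.0982 and 0.0535. Proximal tubule markers (10 genes) spread over 10.99 to 11.31 and 10.66 to 11.65, and 5 general tubular markers over 9.37 to 9.60 and 9.30 to 9.86, so for both lists the arms overlapped. The proximal tubule mean was 11.65, 11.15 and 10.66 in PT2385 replicates 1, 2 and 3. The proximal tubule list nevertheless held a gene past the threshold, the organic anion transporter gene Slc22a6 (-0.97, adjusted p = 0.00572 in limma). The epithelial markers Epcam and Cdh16, kidney cadherin, ran from 8.74 to 9.68 and from 10.69 to 11.04 over the 6 arrays. Of the negative control rows, 1.09% and 0.517% were as bright or brighter. The mean levels of the endothelial and pericyte lists given next also lay above the negative control medians (4.28 to 4.47 by array).

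For other cells the ranges of the arms overlapped. The means were 7.97 to 8.42 and 8.15 to 8.35 for 8 endothelial markers, 8.10 to 8.52 and 8.42 to 8.54 for 7 fibroblast and pericyte markers, and 7.51 to 7.67 and 7.62 to 7.78 for 4 podocyte markers. Of 9 lymphocyte markers 6 lay below the median of the negative control rows. The part that cell makeup had in the values of the cell death genes was not tested.

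**Figure D3:**
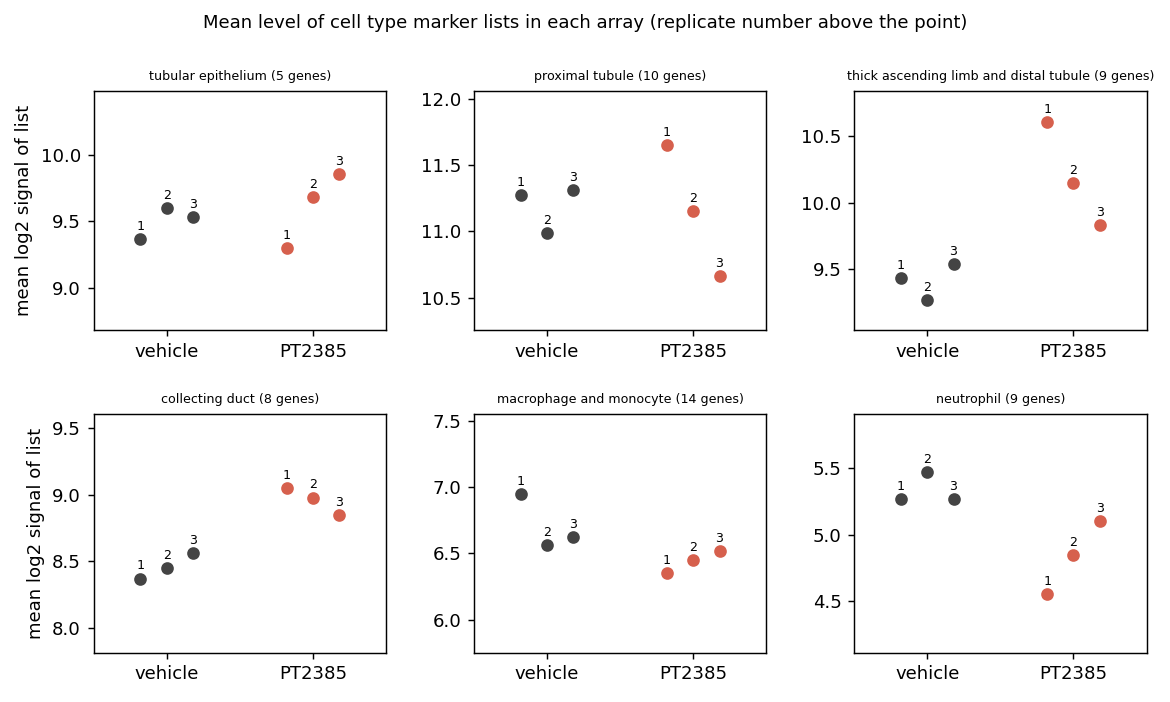
Mean log2 signal of 6 marker lists in each array, vehicle in grey and PT2385 in red, with the replicate number above each point; every panel spans the same 1.8 log2 units. The arms are apart for thick ascending limb and distal tubule, collecting duct, neutrophil and macrophage lists. PT2385 replicate 1 is the highest array in the proximal tubule, thick ascending limb and distal tubule, and collecting duct lists. It is the lowest in the tubular epithelium, macrophage and neutrophil lists.

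Among the 7 ferroptosis genes 5 had lower and 2 higher values in the PT2385 arm, with a median difference of -0.10. Acsl4 and Lpcat3 build polyunsaturated fatty acids into the membrane phospholipids that are oxidised. Acsl4, an acyl-CoA synthetase gene on the X chromosome, had 10.12, 10.72 and 10.45 under vehicle and 9.58, 9.98 and 10.68 under PT2385. PT2385 replicate 3 lay inside the vehicle range and the other PT2385 arrays below it. The difference was -0.35 (SE 0.27, adjusted p = 0.584 in limma), with a 95% interval of -0.95 to 0.26, the widest of the 33. It was -0.10 without PT2385 replicate 1, -0.20 without vehicle replicate 2 and -0.65 without PT2385 replicate 3. Lpcat3, a lysophospholipid acyltransferase gene, had means of 11.45 ± 0.06 and 11.25 ± 0.19 (SD, n = 3 each), a difference of -0.20. Its arms did not overlap although PT2385 replicate 3 and vehicle replicate 1 were nearly equal.

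Among these ferroptosis genes, Gpx4 and Aifm2 act against lipid peroxidation, and both had slightly lower values, with no overlap between the arms. Gpx4, which reduces phospholipid hydroperoxides, had 11.07, 11.06 and 11.02 under vehicle and 10.91, 11.02 and 10.93 under PT2385. Both arms were tight, and PT2385 replicate 2 was almost level with vehicle replicate 3. The difference was -0.10 (SE 0.09, adjusted p = 0.647 in limma) and its 95% interval, -0.30 to 0.11, leaves out a change of 0.5 in either direction. Aifm2, which encodes the GPX4-independent suppressor FSP1, had 6.79, 7.02 and 6.98 against 6.76, 6.68 and 6.72. Every PT2385 array was lower than every vehicle array, though replicate 1 of both arms lay close together, and the difference was -0.21 (SE 0.10, adjusted p = 0.383).

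The lipoxygenase genes, whose enzymes oxidise polyunsaturated fatty acids, were dim. Alox15 had 3.56, 3.31 and 3.59 under vehicle and 3.71, 3.72 and 3.78 under PT2385. All of these lay below the median of the negative control rows (4.28 to 4.47 by array), and 70.4% of those rows were at or above its mean. Its difference of 0.25 (adjusted p = 0.335) is therefore between signals at background level and no fold is given. Alox5 had means of 5.21 ± 0.11 and 5.15 ± 0.08, and Alox12 of 5.02 ± 0.17 and 5.18 ± 0.27 (SD, n = 3 each). For both, more than 30% of the negative control rows were as bright.

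Of the necroptosis genes, Ripk3 and Mlkl could be described. Mlkl, the gene of the membrane-rupturing effector, had 7.91, 8.48 and 7.76 under vehicle and 7.47, 7.71 and 7.97 under PT2385. The arms overlapped, with PT2385 replicate 3 above 2 vehicle arrays. The difference was -0.33 (SE 0.20, 95% interval -0.79 to 0.12, adjusted p = 0.485 in limma). It was -0.12 without vehicle replicate 2, the highest array, and -0.21 without PT2385 replicate 1. Ripk3, the gene of the kinase that phosphorylates MLKL, had 5.09, 4.79 and 5.41 against 5.08, 4.93 and 4.68. The arms overlapped. The signal was dim, with 34.7% of the negative control rows as bright or brighter, and the difference was -0.20 (SE 0.17, adjusted p = 0.628).

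The pyroptosis genes Casp4 and Gsdmd showed overlapping arms. Casp4, the gene of the mouse caspase also called caspase-11, which senses intracellular lipopolysaccharide and cuts gasdermin D, had 6.75, 6.24 and 6.51 under vehicle and 6.13, 6.69 and 6.45 under PT2385. High and low arrays occurred in both arms, and the difference was -0.08 (SE 0.17, adjusted p = 0.874 in limma). Gsdmd, the gasdermin D gene, had 6.05, 5.80 and 5.71 against 5.52, 5.57 and 6.04. PT2385 replicate 3 was close to the highest vehicle array while the other PT2385 arrays lay below the vehicle range, and the difference was -0.15 (SE 0.16, 95% interval -0.51 to 0.21, adjusted p = 0.70).

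**Figure D4:**
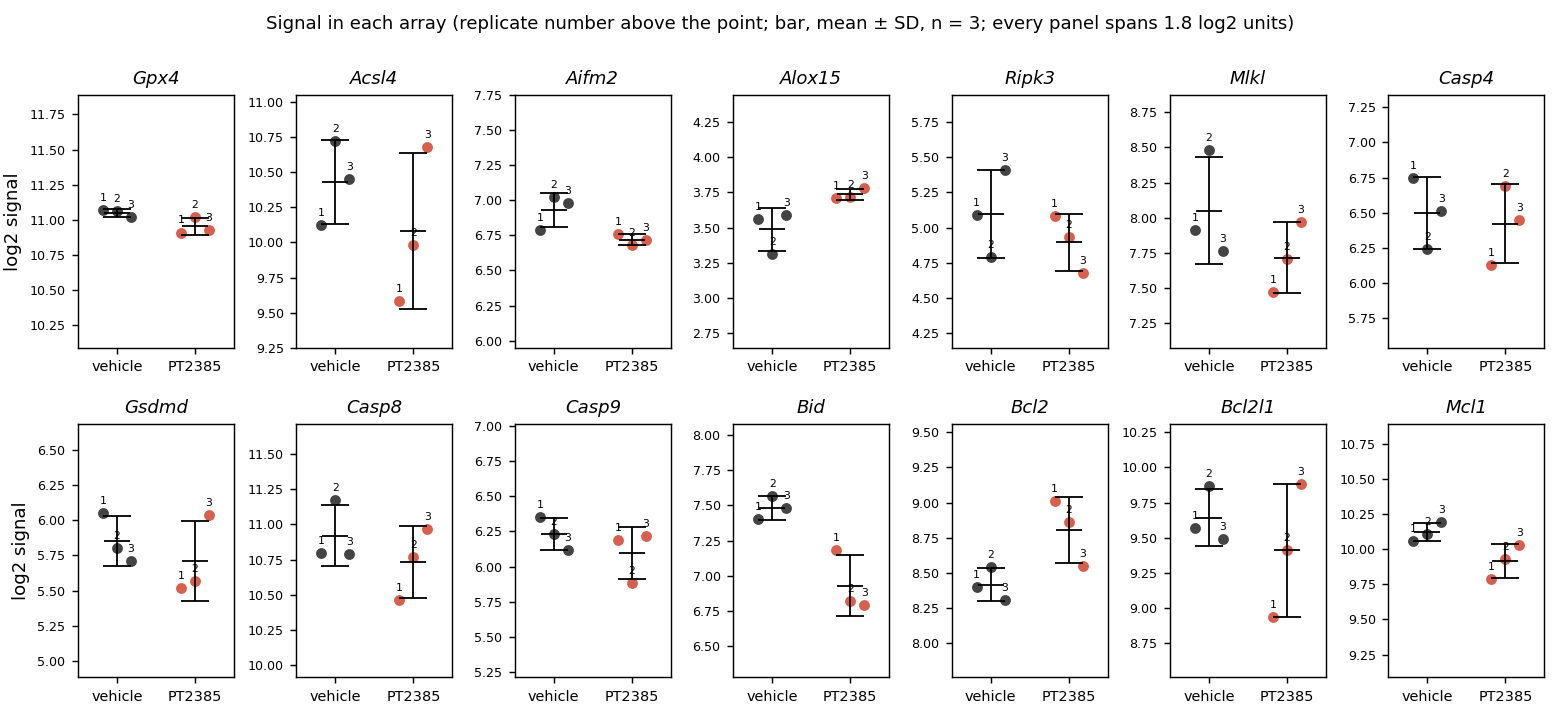
Log2 signal in each array of 14 genes from the 4 pathways, vehicle in grey and PT2385 in red, with the mean ± SD (n = 3) as a bar and the replicate number above each point; every panel spans 1.8 log2 units. The arms are apart for Gpx4, Aifm2, Bid and Mcl1 (PT2385 lower) and for Alox15 and Bcl2 (PT2385 higher), and overlap for the other 8 genes.

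The largest number of genes belonged to apoptosis, with 22 measured, 16 lower and 6 higher, and a median difference of -0.13. Its receptor arm, 8 genes with the inhibitor of apoptosis (IAP) proteins included, leaned lower in 7 of 8, by -0.23 to -0.12, and none had arms that did not overlap. Casp8, the gene of the caspase that death receptors activate, had 10.80, 11.17 and 10.79 under vehicle and 10.46, 10.77 and 10.97 under PT2385. PT2385 replicate 1 was the lowest and replicate 3 lay within the vehicle range, and the difference was -0.19 (SE 0.16, adjusted p = 0.609 in limma). Cflar, whose product FLIP competes with caspase-8 for the same adaptor, differed by -0.20 (SE 0.13), from 9.35 ± 0.16 to 9.16 ± 0.21 (SD, n = 3 each).

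Tnfrsf1a, the gene of the type 1 TNF receptor, was low in a single array. Its vehicle arrays had 9.10, 9.19 and 9.11 and its PT2385 arrays 8.35, 9.05 and 9.30. The PT2385 SD of 0.49 exceeded the vehicle SD of 0.05, and the difference of -0.23 (SE 0.21, adjusted p = 0.647 in limma) turned to 0.04 without replicate 1. The receptor's adaptor genes Tradd and Fadd differed by -0.17 (SE 0.12) and -0.12 (SE 0.12).

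The IAP genes, whose products block caspases or feed TNF receptor signals towards survival, went in both directions. Birc3 (cIAP2) had 9.02, 9.50 and 9.39 against 8.59, 8.98 and 9.67, so that the PT2385 arm held both the lowest and the highest array. Its difference was -0.23 (SE 0.25). Birc2 (cIAP1) differed by 0.07 (SE 0.15), with a sign that turned under array weights (-0.09) and without PT2385 replicate 3, and the X-linked gene Xiap by -0.12 (SE 0.13).

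The BCL-2 family held the genes with the smallest p-values on the list, and they went opposite ways. Bid (cluster TC0600003048.mm.2) encodes the BH3-only protein that caspase-8 cuts to carry a receptor signal to mitochondria. It had 7.40, 7.57 and 7.48 under vehicle and 7.18, 6.82 and 6.79 under PT2385. All PT2385 arrays were below all vehicle arrays, with replicate 1 closest to them. The difference was -0.55 (SE 0.13, 95% interval -0.83 to -0.26), the only one of the 33 that reached 0.5 in size. Its adjusted p was 0.11 in limma, which misses the threshold. It passed without PT2385 replicate 1 (difference -0.67, adjusted p = 0.0368) and with array weights (-0.615, adjusted p = 0.0286). Over all 14 alternatives tried the difference of Bid ran from -0.67 to -0.48 and its adjusted p from 0.0286 to 0.378.

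Bcl2 (cluster TC0100002894.mm.2) encodes the founding antiapoptotic member of the family, which holds BH3-only proteins and BAX-type effectors inactive. It had 8.40, 8.54 and 8.31 under vehicle and 9.01, 8.86 and 8.55 under PT2385. The arms did not overlap, though PT2385 replicate 3 was nearly level with the highest vehicle array. The difference was 0.39 (SE 0.13, 95% interval 0.09 to 0.70, adjusted p = 0.246 in limma). It was positive under all 14 alternatives, from 0.29 to 0.52, with adjusted p from 0.119 to 0.539. In PT2385 replicate 1, where 18 genes of the list were lowest, Bcl2 was at its highest.

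The other antiapoptotic genes did not share the direction of Bcl2. Bcl2l1, the gene of BCL-XL, had 9.57, 9.87 and 9.49 under vehicle and 8.94, 9.41 and 9.88 under PT2385, and the PT2385 arm held the extremes at both ends. Its difference was -0.23 (SE 0.22, adjusted p = 0.662 in limma). Mcl1, whose short-lived product restrains the effectors BAK and BAX, had 10.06, 10.11 and 10.19 against 9.79, 9.93 and 10.03. Every PT2385 array was below every vehicle array, and the difference was -0.21 (SE 0.10, 95% interval -0.44 to 0.03, adjusted p = 0.395).

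The remaining BH3-only genes and the effectors differed less than Bid. Bcl2l11, the gene of BIM, had means of 6.22 ± 0.15 and 5.96 ± 0.23 (SD, n = 3 each), a difference of -0.26 (SE 0.14). Bad and Bik, both sensitisers, differed by 0.04 each (SE 0.13 and 0.12), with signs that turned when arrays were centred on their medians. Bak1, the gene of the pore-forming effector BAK, differed by -0.04 (SE 0.24) and its PT2385 arrays ran from 6.96 to 7.96. Bok, a related effector gene, differed by 0.13 (SE 0.12).

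Because PT2385 acts on a hypoxia-inducible factor, the 250 bases upstream of the RefSeq gene starts (GRCm38.p6) were searched on both strands for ACGTG. These letters are 1 form of the core of a hypoxia response element and are called the core here. Other forms were not searched. Upstream windows were found for 28 of the 33 genes, 7 of which had more than 1. The windows of the genes with the 2 largest differences, Bid (chr6:120916825-120917074, minus strand) and Bcl2 (chr1:106714291-106714540, minus strand), are printed 5′ to 3′ on the gene's strand, ending at the base before the gene start. Neither holds ACGTG on either strand, so no letter is in capitals.
Bid: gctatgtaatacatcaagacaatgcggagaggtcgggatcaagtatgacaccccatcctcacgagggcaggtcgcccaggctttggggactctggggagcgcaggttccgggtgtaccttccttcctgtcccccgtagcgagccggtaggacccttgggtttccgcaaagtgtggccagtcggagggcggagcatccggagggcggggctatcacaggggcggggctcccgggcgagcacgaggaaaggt
Bcl2: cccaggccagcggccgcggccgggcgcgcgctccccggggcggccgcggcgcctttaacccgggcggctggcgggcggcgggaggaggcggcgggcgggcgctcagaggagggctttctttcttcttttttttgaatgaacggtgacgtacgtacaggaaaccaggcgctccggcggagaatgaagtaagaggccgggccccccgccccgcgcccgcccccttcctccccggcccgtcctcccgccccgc

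The windows differ in base makeup, with 63.6% G and C and 18 CpG in that of Bid and 74.8% and 36 in that of Bcl2. The core was present upstream of 4 of the 28 genes (14.3%), Endog, Fadd, Ripk3 and Xiap, against 18.5% of 27025 genes with a window. Each match is shown with 15 bases on either side, the core in capitals (CACGT where it lies on the opposite strand).
Endog, chr2:30171413-30171447, plus strand: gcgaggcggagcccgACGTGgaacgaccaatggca
Fadd, chr7:144582616-144582650, minus strand: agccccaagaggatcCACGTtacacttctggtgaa
Ripk3, chr14:55788898-55788932, minus strand: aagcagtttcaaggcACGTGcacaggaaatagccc
Xiap, chrX:42068221-42068255, plus strand: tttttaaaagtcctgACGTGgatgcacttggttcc

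In Ripk3 the core lies inside the palindrome CACGTG, so it is read on both strands and overlaps an E-box. The core started 96 bases upstream of the gene start in Endog, 194 in Fadd, 60 in Ripk3 and 162 in Xiap. All 4 of these genes had lower values in the PT2385 arm, by -0.28 (Endog), -0.12 (Fadd), -0.20 (Ripk3) and -0.12 (Xiap), and none passed the threshold. Of all 33 genes 75.8% had lower values, and Ripk3 was dim. A match of these letters is a description of the window and not a binding site.

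Of the 5 mitochondrial release and execution genes measured, 4 had lower values and 1 a higher value, with a median difference of -0.09. Casp9, the gene of the caspase activated on the apoptosome, had 6.35, 6.23 and 6.12 under vehicle and 6.19, 5.88 and 6.22 under PT2385. The arms overlapped, with a difference of -0.14 (SE 0.12, adjusted p = 0.646 in limma). Endog, a mitochondrial nuclease gene, had means of 6.26 ± 0.21 and 5.98 ± 0.14 (SD, n = 3 each), the largest difference of this arm at -0.28 (SE 0.13, adjusted p = 0.369). Diablo and Htra2, whose products are released to neutralise IAP proteins, differed by -0.09 (SE 0.10) and -0.05 (SE 0.15), the sign of Htra2 turning under quantile normalization. Aifm1, the gene of apoptosis-inducing factor, lies on the X chromosome and differed by 0.03 (SE 0.11), or by -0.01 with arrays centred on their medians.

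Other genes of the same pathways were examined from a list of 104, of which 93 were measured, 60 with lower and 33 with higher values. This list too was chosen with earlier results of these data known. Its counts, set beside the shares of all clusters here and below, are therefore a description only. In it 3 genes passed the adjusted threshold, all lower (0.829% of all clusters passed in either direction), and 2 of them belong to TNF signalling around necroptosis. Ikbkg, the X-linked gene of NEMO, the scaffold that keeps RIPK1 in survival signalling, had 6.58, 6.82 and 6.66 under vehicle and 6.04, 5.86 and 5.87 under PT2385. The arms were clearly apart, with a difference of -0.77 (SE 0.11, adjusted p = 0.0202 in limma). Its call was lost without vehicle replicate 2 (adjusted p = 0.086), vehicle replicate 3 (adjusted p = 0.0694) or PT2385 replicate 2 (adjusted p = 0.134). The ligand gene Tnf, dim with 38.3% of the negative control rows as bright or brighter, fell by 0.74 (SE 0.10, adjusted p = 0.0151). Its PT2385 arrays, 4.39 to 4.55, were close to the negative control medians of 4.28 to 4.38 there, so the size of the fall is uncertain. Tnf too lost its call without vehicle replicate 2 (adjusted p = 0.074), vehicle replicate 3 (adjusted p = 0.061) or PT2385 replicate 2 (adjusted p = 0.0751).

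The necroptosis companions leaned lower in 18 of 21, with a median of -0.13, while 46.5% of all clusters were lower. At an unadjusted p under 0.05 the counts were 6 lower and 0 higher, against 6.54% and 7.94% of all clusters. Beside Ikbkg and Tnf the smallest p-values were those of Tbk1 (-0.33, SE 0.09, adjusted p = 0.156), a kinase gene whose product restrains RIPK1, and of the deubiquitinase gene Cyld (-0.47, SE 0.14, adjusted p = 0.189, or 0.0473 with array weights). Tbk1 had 8.72, 8.66 and 8.70 against 8.32, 8.41 and 8.35, well apart with little spread in either arm. The macrophage and neutrophil levels given above differed between the same arrays, and their part was not tested.

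Among 17 measured pyroptosis companions 11 were lower and 6 higher, while 46.5% of all clusters were lower, and 1 passed. At an unadjusted p under 0.05, 5 were lower and 0 higher, against 6.54% and 7.94% of all clusters. The gene that passed was Il1b, the cytokine released through gasdermin pores, which fell by 1.55 (SE 0.14, adjusted p = 0.00179 in limma) and passed in all 14 alternatives. Its PT2385 arrays, 4.63 to 4.74, were close to the negative control medians of 4.28 to 4.38 there, so the size of the fall is uncertain. Il18, the other cytokine of this route, had 5.58, 5.50 and 5.07 under vehicle and 4.37, 4.25 and 4.98 under PT2385, and the arms came close only at replicate 3. It was dim, with 35.7% of the negative control rows as bright or brighter, and PT2385 replicates 1 and 2 lay below the negative control medians of their arrays, so no fold is given. Its adjusted p was 0.13 in limma, or 0.0424 with array weights and 0.0367 without PT2385 replicate 3. Gsdme, a gasdermin gene cut by caspase-3, differed by -0.44 (SE 0.11, adjusted p = 0.147). The kinase gene Nek7, needed for the NLRP3 inflammasome, differed by -0.24 (SE 0.10).

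The 28 measured ferroptosis companions were evenly divided, 14 lower and 14 higher. In limma 0 passed the adjusted threshold, with 8 lower and 2 higher at an unadjusted p under 0.05, which took 6.54% and 7.94% of all clusters. Hmox1, the haem oxygenase gene, had 11.14, 11.34 and 11.00 under vehicle and 9.75, 9.98 and 10.55 under PT2385, a difference of -1.06 (SE 0.20, adjusted p = 0.0566 in limma). It passed in 4 of 14 alternatives: with centring (adjusted p = 0.0484), a trended robust variance prior (0.0467), array weights (0.0165) and without PT2385 replicate 3 (0.00986). Gclm, the modifier subunit of the first enzyme of glutathione synthesis, had 11.13, 11.14 and 11.10 against 10.71, 10.66 and 10.64. Both arms of Gclm were tight and clearly apart, with a difference of -0.46 (SE 0.09, adjusted p = 0.0635). It passed in 3 of 14: with centring (0.0437), the trended robust prior (0.0326) and array weights (0.0271). Gss, the next enzyme of that synthesis, differed by -0.35 (SE 0.11, adjusted p = 0.218). Ptgs2, a prostaglandin synthase gene often used as a ferroptosis marker, differed by -1.34 (SE 0.38, adjusted p = 0.182). It had 5.81, 6.38 and 7.09 under vehicle and 4.30, 5.39 and 5.56 under PT2385. PT2385 replicate 1 lay below its array's negative control median of 4.38, so the size of the difference is uncertain.

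Of the 27 measured apoptosis companions 17 were lower and 10 higher. In limma 0 passed the adjusted threshold, with 3 lower and 1 higher at an unadjusted p under 0.05, against the same shares of all clusters. The smallest p-values were those of Apaf1, the apoptosome scaffold gene (-0.36, SE 0.13, adjusted p = 0.256), Birc5, the survivin gene (0.35, SE 0.14), the caspase-2 adaptor gene Cradd (-0.29, SE 0.11) and Bcl2a1d (-0.38, SE 0.16). Bcl2a1d has near-identical copies in the mouse genome, so its signal cannot be assigned to it alone. It was also dim, with 35.7% of the negative control rows as bright or brighter.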

How the data were processed

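Biotin-labelled RNA from tubular cells was hybridised to Affymetrix whole-transcript arrays, per the labels' protocols. The deposited values are log2 signals per transcript cluster, made by the authors in Transcriptome Analysis Console, per the submitters' processing notes. The version, the summarisation method and the normalization were not given in the sources used here. Of 28846 rows, 6640 controls were left out and 22206 clusters tested, unfiltered, with limma 3.58.1 in R 4.3.3 (lmFit, eBayes, treatment as the only term, 2-sided), with Benjamini-Hochberg adjustment over all clusters and a threshold of 0.05. Genes were named through the platform annotation and represented by their brightest cluster. The fit was tested on simulated data. No detection calls were used: 5222 negative control rows served as the measure of dim signals, and the number of arrays limits the precision. The members and gene lists were chosen with earlier results of these data known. All members are given. Signals of every array are printed for the measured key genes fixed for each pathway and those with an unadjusted p under 0.05 or a difference of at least 0.5, and in each companion list the 4 genes with the smallest p are named. Array values of Tnfrsf1a, Birc3 and Uty, the markers named and the choice of the Bid and Bcl2 windows were added after their values were seen. Alternatives covered the replicate number as a block, centring, quantile normalization, dim clusters, 1 cluster per gene, the variance prior, array weights, the X and Y chromosomes, and the omission of each array.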

Additional observations from a re-analysis of the deposited data

How the results depend on the processing

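The number of cell death genes past the adjusted threshold stayed at 0 except with array weights (1, Bid) and without PT2385 replicate 1 (1, Bid), and it ran from 0 to 1 over the omission of single arrays. The number with an unadjusted p under 0.05 was 5 with arrays centred on their medians and 6 with array weights, and ran from 1 to 8 when single arrays were left out. The clusters past the threshold numbered 456 with array weights and 42 to 179 with single arrays left out. The cause of these shifts was not tested. Between 21 and 28 of the genes had lower values in the PT2385 arm over all alternatives, and the median difference ran from -0.20 to -0.05. With the replicate number as a block, 178 clusters and 0 of the genes passed. Of the other pathway genes named, Ptgs2 passed with this block (adjusted p = 0.00702, against 0.182 without it) and under no other alternative. Same-numbered arrays deviated together with correlations of 0.138, 0.0252 and -0.0587, so the numbers were not taken as pairs, and vehicle replicate 2 correlated best with PT2385 replicate 3. The dimmest cluster per gene was not run, since each gene had 1. Signals near the negative controls limit what Alox5, Alox12, Alox15, Ripk3, Tnf, Il1b, Il18, Ptgs2 and Bcl2a1d can show.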

Other observations

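The distance between Bcl2 and Bid within each array, a comparison chosen after the values were seen and given without a test, was wider throughout the PT2385 arm. The log2 signal of Bcl2 exceeded that of Bid by 1.00, 0.97 and 0.83 in the vehicle arrays and by 1.83, 2.04 and 1.76 in the PT2385 arrays. The arms were apart, which had to follow because both genes already had arms apart, in opposite directions. PT2385 replicate 1 did not stand out. For Mcl1 over Bid the distances were 2.66, 2.54 and 2.72 against 2.61, 3.11 and 3.24, and for Bcl2l1 over Bid they were 2.18, 2.30 and 2.01 against 1.76, 2.59 and 3.09, so both of these overlapped. The size of such a distance depends on the probes, and only its change between arrays can be read.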
